A study of Mus musculus with 6 samples.

Results

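The insulin-like growth factor (IGF) system was described here through 10 genes: the ligands Igf1 and Igf2, the receptors Igf1r and Igf2r, and the binding proteins Igfbp2, Igfbp3, Igfbp4, Igfbp5, Igfbp6 and Igfbp7. They were chosen by name, as 10 of the 32285 genes in the count matrices. All 10 had at least 1 unique molecular identifier (UMI, a tag that marks 1 captured RNA molecule) in both injured libraries, and 9 had one in the uninjured library.

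The study measured single cells from the left quadriceps muscle of male wild-type C57BL/6 mice aged 2 to 3 months. The 3 groups were uninjured muscle, muscle with a subcritical 2 mm defect, and muscle with a critical 3 mm volumetric muscle loss (VML) defect, a wound in which too much muscle is removed for it to grow back. Injured muscle was taken at day 7. Each group was 1 library made from the pooled, hashtag-stained cells of 4 animals, so group, pool and library cannot be told apart. The tissue was digested with enzymes, which leaves few whole muscle fibres.

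IGF1 and IGF2 are secreted growth factors that signal through the IGF1 receptor and support growth and repair of muscle. The IGF2 receptor has no such signal and carries IGF2 to the lysosome for breakdown. The IGF-binding proteins hold the ligands outside the cell, and proteases that cut them release the ligand. In regenerating muscle, fibro-adipogenic progenitors (FAPs, the resident mesenchymal cells) and macrophages are known sources of IGF1.

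After filtering, 2169 uninjured, 2843 subcritical and 3104 critical cells remained, from libraries of 5681346, 4954129 and 7138662 UMIs. The median cell held 1812, 1277 and 1588 UMIs in that order. Cells were clustered without the 10 IGF genes, and 7594 of the 8116 cells fell in 9 classes, 8 of them named from marker genes. The other class, a myeloid cluster of 68 uninjured, 173 subcritical and 155 critical cells, is left unnamed: the monocyte markers Ly6c2 and Plac8 were among its leading genes, but so were the granulocyte-precursor genes Elane, Mpo and Prtn3 and the antigen-presenting genes Cd209a and H2-Ab1. The FAP-like class held 160 uninjured, 615 subcritical and 746 critical cells, the endothelial-like class 1326, 564 and 632, and the macrophage-like class 30, 836 and 816. The 3 pairs of libraries shared 16, 10 and 16 cell barcodes. Hashtags named an animal for 37.1%, 36.8% and 31.2% of cells, but for only 3.13%, 2.6% and 4.42% of FAP-like cells. FAP-like cells could therefore not be compared between animals, and their folds compare single libraries.

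Levels are given as CPM, the UMIs of a gene per 1000000 UMIs of the class, with exact 95% Poisson intervals where shown. Log2 folds between libraries were taken on the CPM + 1 scale with exact binomial intervals. These intervals cover counting error only. A gene was called when it differed at least 2-fold, with an interval that excluded 0 and at least 10 UMIs over both libraries. No p-value belongs to such a call. In FAP-like cells, 5 of the 9 IGF genes with enough UMIs were called in critical against uninjured muscle (3 higher, 2 lower), where 14.2% of all genes tested were called (6.11% higher, 8.04% lower). The same 5 were called in subcritical against uninjured muscle, again among 9, where the share over all genes was 13.5% (5.37% higher, 8.16% lower). Those 5 were Igf1, Igf2 and Igfbp4, which were higher, and Igfbp5 and Igfbp6, which were lower. Both comparisons use the same uninjured library. Of 10 IGF genes tested between critical and subcritical muscle, 0 were called, where 1.94% of all genes were. The median log2 fold of the IGF genes was 0.12, 0.72 and -0.14 in these 3 comparisons, beside -0.04, -0.10 and 0.04 over all genes tested.

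The sequences before the start sites of 4 of these 5 genes are shown because the genes moved in opposite directions in the FAP-like class. The make-up of that class differed between libraries, so the folds do not show opposite changes within a cell. Each of the 4 genes has 1 RefSeq start window. Igf2 has 4 such windows and is not shown. The sequences are the 250 bases before the start, 5′ to 3′ on the strand of the gene, from RefSeq on build GRCm38.p6, an earlier build than the one named in the submitters' processing notes. Igf1 lies at chr10:87860861-87861110 on the + strand, Igfbp4 at chr11:99040994-99041243 (+), Igfbp5 at chr1:72874866-72875115 (-) and Igfbp6 at chr15:102143936-102144185 (+). Capitals mark matches, on either strand, to any of 5 motifs. These are the TATA box TATAAA, the GC box GGGCGG, the CCAAT box, the AP-1-like pattern TGANTCA and the forkhead site TGTTTAC. In TGANTCA the N stands for any base, so the pattern is looser than a single site.
Igf1: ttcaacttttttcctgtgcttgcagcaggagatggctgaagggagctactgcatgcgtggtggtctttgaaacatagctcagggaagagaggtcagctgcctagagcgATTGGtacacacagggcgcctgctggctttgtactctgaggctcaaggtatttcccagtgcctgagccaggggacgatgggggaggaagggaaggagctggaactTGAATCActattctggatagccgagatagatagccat
Igfbp4: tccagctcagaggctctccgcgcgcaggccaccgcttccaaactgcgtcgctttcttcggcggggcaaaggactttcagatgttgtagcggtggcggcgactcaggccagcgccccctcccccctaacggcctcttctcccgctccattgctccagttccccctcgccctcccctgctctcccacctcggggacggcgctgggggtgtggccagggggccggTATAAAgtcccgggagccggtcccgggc
Igfbp5: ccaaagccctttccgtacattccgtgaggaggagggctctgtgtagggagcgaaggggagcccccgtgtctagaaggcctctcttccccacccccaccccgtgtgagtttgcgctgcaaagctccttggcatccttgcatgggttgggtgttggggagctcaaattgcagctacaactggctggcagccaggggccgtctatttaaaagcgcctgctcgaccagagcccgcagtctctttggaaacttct
Igfbp6: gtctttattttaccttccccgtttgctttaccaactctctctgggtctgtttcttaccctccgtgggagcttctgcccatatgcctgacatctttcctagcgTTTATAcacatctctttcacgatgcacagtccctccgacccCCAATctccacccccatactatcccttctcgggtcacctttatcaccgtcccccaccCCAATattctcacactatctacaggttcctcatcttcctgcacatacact
The Igf1 window held 1 CCAAT and 1 TGANTCA match, and the Igfbp4 window held 1 TATAAA match. The Igfbp6 window held 1 TATAAA and 2 CCAAT matches, and the Igfbp5 window held none of the 5 motifs. Among all 32851 RefSeq windows of this length, 12.4% held TATAAA, 32.7% GGGCGG, 33.8% CCAAT, 6.75% TGANTCA and 3.17% TGTTTAC. A match describes the letters in the window and does not show that a factor binds there.

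Igf1, the main IGF ligand of adult tissue, was higher in FAP-like cells of both injured libraries. Its level was 366 CPM (interval 322 to 415) in uninjured, 927 CPM (877 to 978) in subcritical and 791.5 CPM (756 to 828) in critical muscle. The intervals of the injured libraries did not overlap that of uninjured muscle. The log2 fold over uninjured muscle was 1.34 (1.14 to 1.54) in subcritical and 1.11 (0.92 to 1.31) in critical muscle, and critical against subcritical muscle gave -0.23 (-0.33 to -0.12). The share of FAP-like cells with an Igf1 UMI was 61.3%, 63.4% and 64.8% in uninjured, subcritical and critical muscle, at median depths of 3858, 2226 and 2916 UMIs. With every cell thinned to 1000 UMIs, which left 150, 527 and 691 cells, it was 27.3%, 51.6% and 45.0%. Mural-like cells (pericytes and smooth muscle) gave thinned shares of 0.5% to 1.2%.

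**Figure D1:**
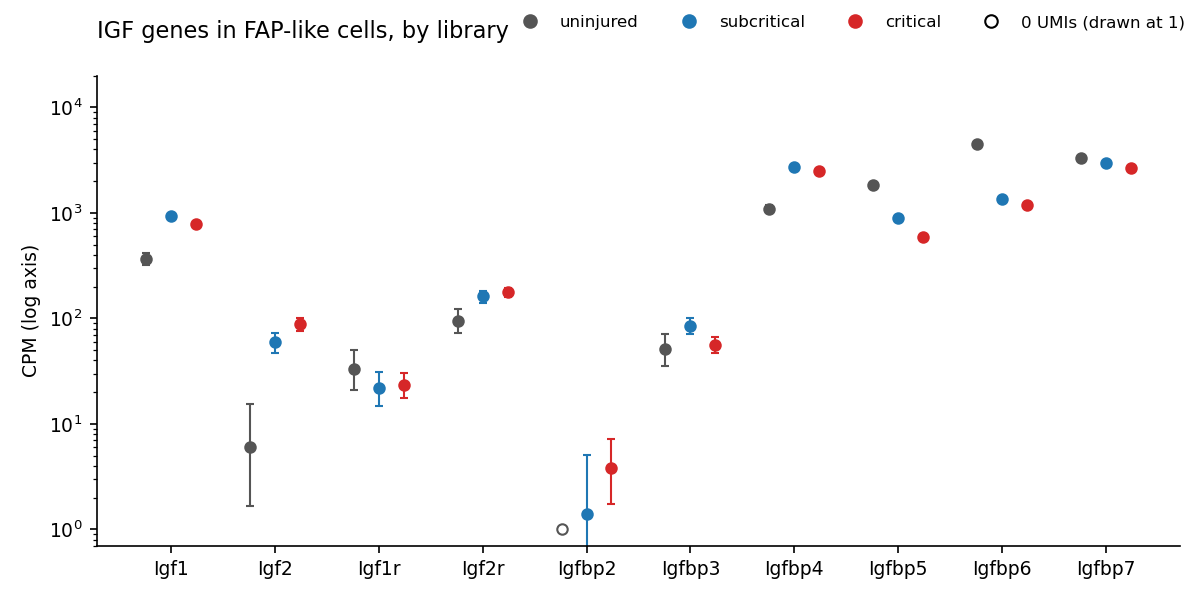
Level of each IGF gene in FAP-like cells of the 3 libraries (log10 axis, CPM), with exact 95% Poisson intervals as bars; a gene with 0 UMIs is an open point at 1 CPM. Igf1, Igf2 and Igfbp4 sit higher in both injured libraries than in uninjured muscle, and Igfbp5 and Igfbp6 sit lower.

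Macrophage-like cells held less Igf1 than tenocyte-like and FAP-like cells in each library. Their level was 163 CPM (84.4 to 285) in uninjured, 474 CPM (437 to 514) in subcritical and 449 CPM (416 to 484) in critical muscle. The uninjured value came from 12 UMIs in 30 cells. Its interval overlapped neither injured one, and the log2 folds were 1.53 (0.72 to 2.48) and 1.45 (0.64 to 2.40). Of the 30 uninjured cells, 19 lay in a sub-cluster led by Lyve1 and Timd4 that held only 5 subcritical and 3 critical cells, so the folds compare different sub-clusters. That sub-cluster held 182 CPM of Igf1 in uninjured muscle, from 8 UMIs. In macrophage-like cells 4 of 7 IGF genes were called in critical against uninjured muscle, where 7.9% of all genes were, and 3 of 7 in subcritical against uninjured muscle, where 9.45% were. Other scaling moved these comparisons: factors by the trimmed mean of M-values (TMM) shifted all folds by 0.37 and 0.49 and took the share of calls that were higher from 30.7% to 63.3% and from 23.1% to 66.4%. Macrophage-like cells of injured muscle carried FAP marker RNA at 2.07% (subcritical) and 2.21% (critical) of the FAP-like level. At that share, FAP-like Igf1 would give 19.2 and 17.5 CPM, below the measured values. Between critical and subcritical muscle 2 of 8 IGF genes were called in macrophage-like cells, where 3.27% of all genes were. Igfbp5 stood at 33.7 CPM in subcritical and 10.7 CPM in critical muscle, a log2 fold of -1.57 (-2.42 to -0.76). Igfbp6 stood at 8.83 and 19.3 CPM, a fold of 1.05 (0.08 to 2.06). The FAP marker RNA in these cells would carry 18.4 and 13.2 CPM of Igfbp5 and 28.2 and 26.0 CPM of Igfbp6, and its part in these calls was not tested.

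Macrophage-like cells had 4 animals in each injured group for the edgeR test. Igf1 stood at 517, 555, 466 and 389.8 CPM in the 4 subcritical animals (mean 482 ± 71.5, SD, n = 4). It stood at 384, 610.5, 405 and 382 CPM in the 4 critical animals (mean 445 ± 111, SD, n = 4). The animals of both groups overlapped. The log2 fold of critical over subcritical muscle was -0.14 ± 0.14 (SE), with an adjusted p = 0.877 by edgeR's quasi-likelihood test with Benjamini-Hochberg adjustment. Of the 4 IGF genes that passed edgeR's filter in macrophage-like cells (Igf1, Igf2r, Igfbp4 and Igfbp7), 0 were called, while 0.979% of 4086 genes were. Their adjusted p-values in that edgeR test lay between 0.754 and 0.9995. The unnamed myeloid class also had 4 and 4 injured animals. There only Igfbp4 passed the filter and was not called (log2 fold -0.59 ± 0.93, adjusted p = 0.934), where 0.571% of 1225 genes were.

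**Figure D2:**
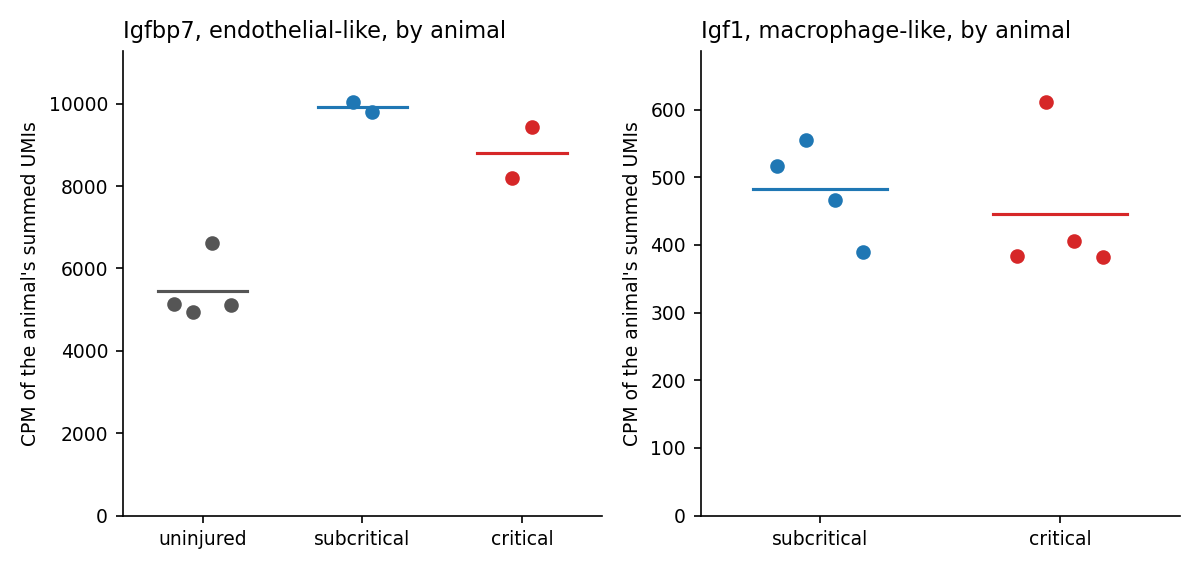
Levels in single animals (CPM, axis from 0), 1 point per animal with at least 20 tagged cells, for endothelial-like Igfbp7 and, in the injured groups, macrophage-like Igf1; lines are group means. All 4 injured animals that are drawn lie above all 4 uninjured ones for Igfbp7, and the injured groups overlap for Igf1.

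Among macrophage-like sub-clusters of at least 20 cells in a library, Igf1 was highest in a sub-cluster with resident-macrophage markers, led by Ccl8 and Slc40a1. It held 681 CPM in subcritical and 712 CPM in critical muscle. The sub-cluster with scar-associated macrophage markers held 392 and 303 CPM, and one with MHC class II markers held 314 and 298 CPM. Between injured libraries none of these 3 sub-clusters passed the 2-fold rule for Igf1. The sub-cluster led by Lyve1 and Timd4, described above, also had resident-macrophage markers but had under 20 cells in every library. Its resident markers stood at a mean log2 fold of 3.82 over the other macrophage-like cells, beside 0.71 in the one led by Ccl8 and Slc40a1.

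Tenocyte-like cells had the highest Igf1 level of any class in each library. The level was 1177 CPM (992 to 1387) in uninjured, 1134 CPM (1027 to 1249) in subcritical and 1377 CPM (1290 to 1469) in critical muscle, with only 19 uninjured cells. FAP-like cells came second followed by macrophage-like cells in each library, and the intervals of these 3 classes did not overlap within a library. Myogenic-like cells (satellite cells and myoblasts) held 102, 44.6 and 113 CPM, and Igf1 was called between critical and subcritical muscle at a log2 fold of 1.33 (0.13 to 2.71). That was 1 of 8 IGF genes tested there, where 3.77% of all genes were called.

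Endothelial-like cells held less Igf1, at 20.2 CPM (15.1 to 26.4) in uninjured, 80.3 CPM (60.2 to 105) in subcritical and 72.4 CPM (56.4 to 91.7) in critical muscle. The injured intervals lay above the uninjured one, and Igf1 was called at log2 folds of 1.94 (1.38 to 2.50) and 1.79 (1.27 to 2.32). FAP and macrophage marker RNA moved the same way in this class. FAP markers stood at 0.118% of the FAP-like level in uninjured and at 1.42% and 1.88% in injured muscle, which would carry 13.1 and 14.9 CPM of Igf1. Macrophage markers stood at 1.59% and 1.91%, which would carry 7.53 and 8.55 CPM. The part of this RNA in the Igf1 fold was not tested beyond these values. Within endothelial-like sub-clusters, Igf1 was highest where venous markers led, at 114, 197 and 165 CPM. In the arterial sub-cluster the uninjured library had 0 Igf1 UMIs in 240 cells. Single animals, with 0 to 11 UMIs each, held 16.7, 19.8, 0 and 11.5 CPM in uninjured, 17.2 and 193 CPM in subcritical and 43.6 and 79.9 CPM in critical muscle. Igf1 did not pass edgeR's filter there, and uninjured and subcritical animals overlapped.

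Of all Igf1 UMIs in a library, FAP-like cells held 51.0% in uninjured, 51.6% in subcritical and 48.3% in critical muscle. The macrophage-like share was 2.53%, 23.0% and 17.2%, and the tenocyte-like share 30.2%, 16.1% and 23.7%. These shares move with the number of cells captured, which differs between libraries.

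Igf2, the ligand best known from the fetus and from differentiating myoblasts, came from different classes before and after injury. In FAP-like cells it rested on 4 UMIs in uninjured muscle, at 6.05 CPM (1.65 to 15.5). It held 59.4 CPM (47.5 to 73.4) in subcritical and 87.8 CPM (76.3 to 101) in critical muscle. Both injured intervals lay above the uninjured one, with log2 folds of 3.10 (1.82 to 4.55) and 3.65 (2.41 to 5.08). Critical against subcritical muscle gave 0.56 (0.19 to 0.93), under the 2-fold rule. Few cells carried it: 2.5%, 7.48% and 10.3% of FAP-like cells had an Igf2 UMI, and 10 cells held 49.4% and 46.4% of the UMIs in the injured libraries. Endothelial marker RNA in FAP-like cells would carry 1.90, 0.593 and 0.834 CPM of Igf2 in uninjured, subcritical and critical muscle. Myogenic-like cells held more Igf2 than FAP-like cells after injury, and what their RNA would carry was not estimated. The part of other classes' RNA in the FAP-like Igf2 folds was not tested.

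Endothelial-like cells gave the opposite direction for Igf2. Their level was 146 CPM (132 to 161) in uninjured, 39.4 CPM (25.7 to 57.7) in subcritical and 45.1 CPM (32.7 to 60.8) in critical muscle. The log2 folds were -1.86 (-2.48 to -1.30) and -1.67 (-2.15 to -1.22), and the injured intervals lay below the uninjured one. In this class 3 of 9 IGF genes were called in critical against uninjured muscle (Igf1, Igf2 and Igfbp3), where 8.99% of all genes were. In subcritical against uninjured muscle 2 of 9 were called (Igf1 and Igf2), where 9.1% of all genes were. Between critical and subcritical muscle 0 of 9 were called, where 2.35% of all genes were.

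The endothelial Igf2 came mostly from the arterial sub-cluster, where Igf2 was among the 10 leading genes although it had been left out of the clustering. The arterial level was 525.5 CPM in uninjured, 233 CPM in subcritical and 267.5 CPM in critical muscle. That gave log2 folds of -1.17 (-2.02 to -0.43), which passed the 2-fold rule, and -0.97 (-1.57 to -0.42), which did not. Over all genes tested in that sub-cluster, 3.38% and 4.14% were called. Arterial cells made up 240 of 1326 endothelial-like cells in uninjured and 46 of 564 in subcritical muscle. Igf2 could not be compared between animals, since it did not pass edgeR's filter. The 4 uninjured animals held 16.7, 39.5, 14.7 and 46.1 CPM of Igf2 in tagged cells, all below the 146 CPM of the whole class. Subcritical animals held 34.4 and 17.6 CPM and critical ones 14.5 and 26.6 CPM, so the groups overlapped. Each of these values rests on 1 to 22 UMIs. Hashtags named an animal for only 30 of the 240 uninjured arterial cells. The tagged cells thus held few of the cells that carry Igf2 and cannot decide the fold between libraries.

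Myogenic-like cells carried Igf2 at 40.8 CPM (4.94 to 147, 2 UMIs), 223 CPM (155 to 310.0) and 325 CPM (260.0 to 401.5). The log2 folds over uninjured muscle were 2.42 (0.49 to 5.29) and 2.96 (1.09 to 5.80). Uninjured muscle gave only 24 myogenic-like cells. In this class 4 of 8 IGF genes were called in critical and 3 of 8 in subcritical muscle against uninjured muscle, where 12.5% and 14.8% of all genes were. Mural-like Igf2 stood at 123, 86.4 and 69.8 CPM and was not called.

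Of all Igf2 UMIs, endothelial-like cells held 71.6% in uninjured, 14.0% in subcritical and 10.9% in critical muscle. The FAP-like share was 0.762%, 45.7% and 52.9%, and the myogenic-like share 0.381%, 18.8% and 21.8%. The uninjured library held 525 Igf2 UMIs, the subcritical 186 and the critical 395.

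**Figure D3:**
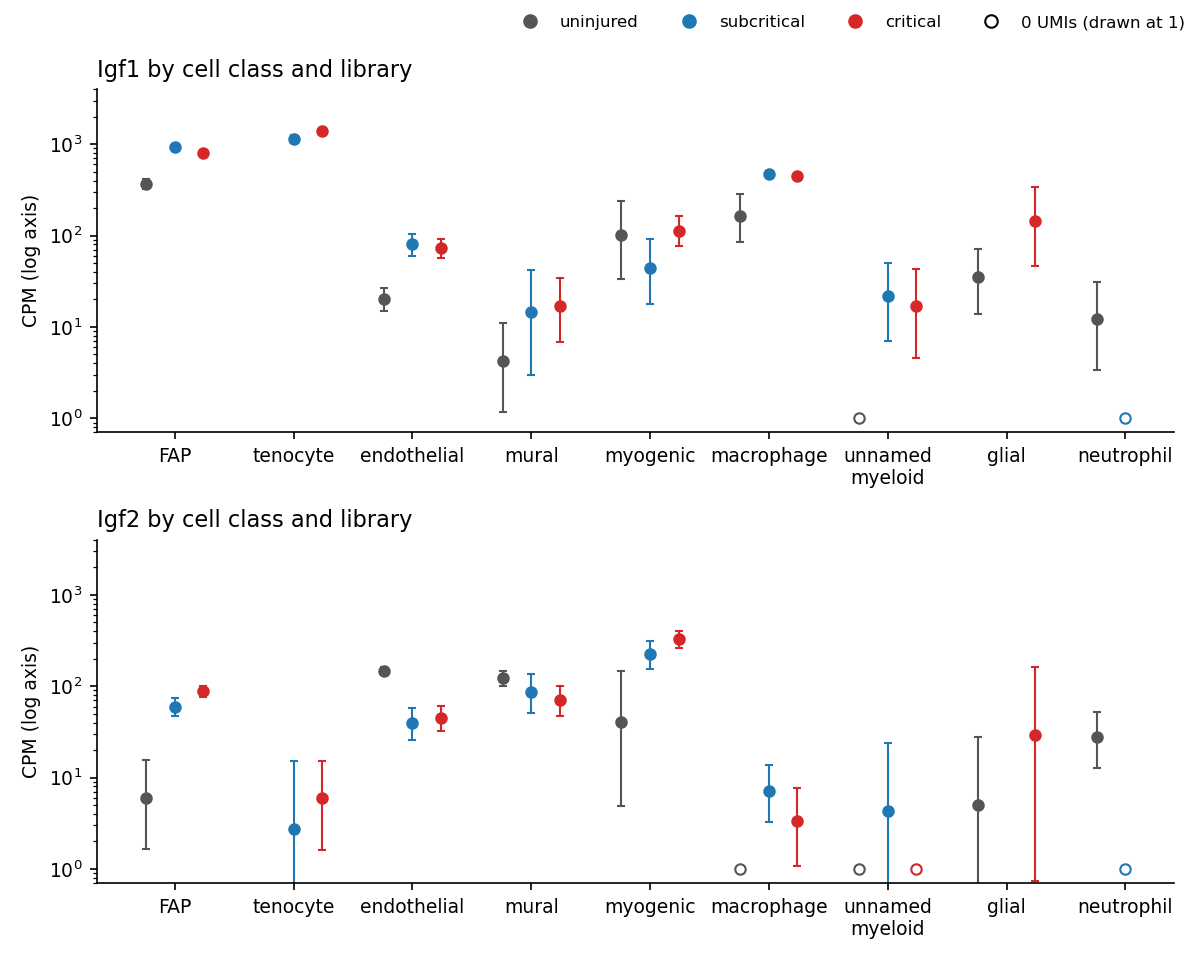
Igf1 and Igf2 levels by cell class and library (log10 axis, CPM, exact 95% Poisson intervals); classes with under 20 cells in a library are not drawn and 0 UMIs are open points at 1 CPM. Igf1 is highest in tenocyte-like and FAP-like cells, and Igf2 is lower after injury in endothelial-like cells but higher in FAP-like and myogenic-like cells.

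**Figure D4:**
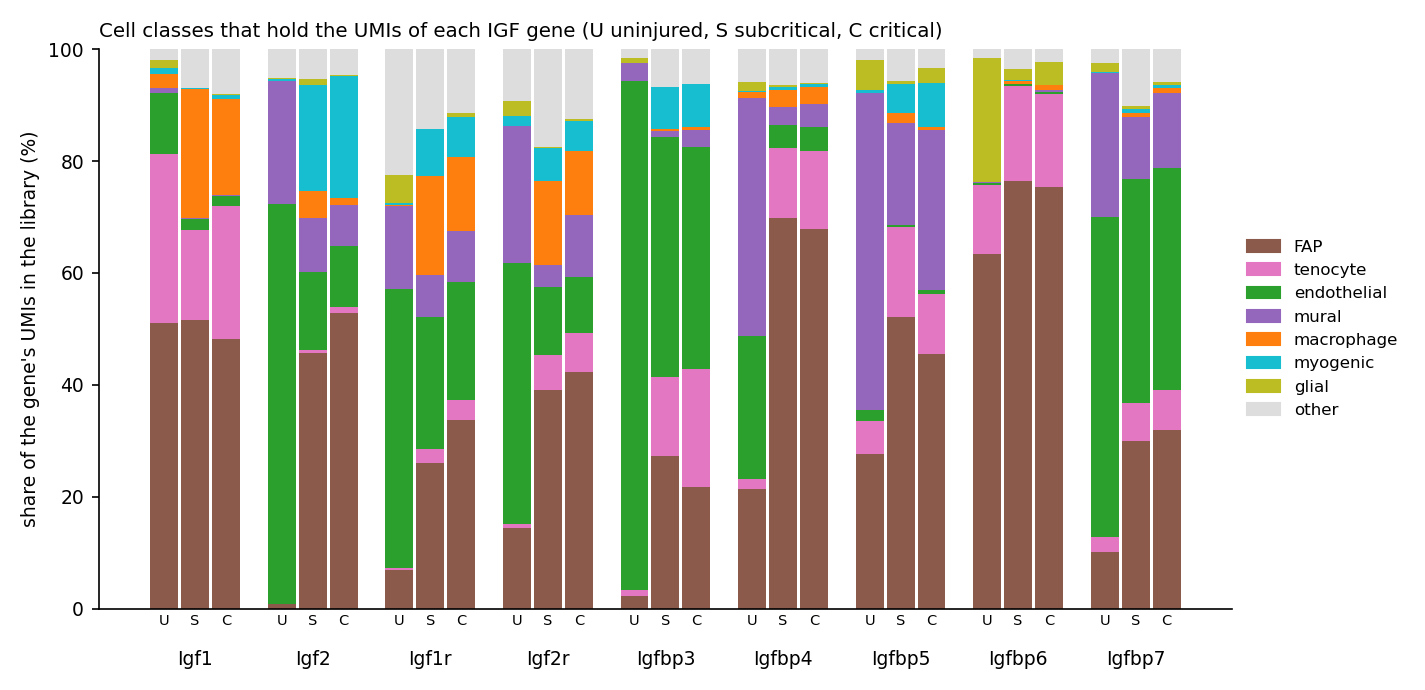
Share of each gene's UMIs (percent) that came from each cell class, 1 bar per library. The endothelial part of the Igf2 bar is 71.6% in uninjured and 10.9% in critical muscle, where the FAP-like part is 52.9%.

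Igf1r, the signalling receptor, was low in every class and was called in no comparison of FAP-like, endothelial-like, macrophage-like or mural-like cells. FAP-like cells held 33.3 CPM (20.9 to 50.4), 21.7 CPM (14.7 to 30.7) and 23.5 CPM (17.8 to 30.5) in uninjured, subcritical and critical muscle. The intervals overlapped, and the log2 fold of critical over uninjured muscle was -0.48 (-1.20 to 0.27). Endothelial-like cells held 61.3, 42.4 and 36.7 CPM. The highest well-counted level was in neutrophil-like cells of uninjured muscle, at 138 CPM (101 to 185).

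Igf2r, which clears IGF2, stood at 95.4 CPM (73.3 to 122) in uninjured, 161 CPM (141 to 184) in subcritical and 178 CPM (161 to 195.5) in critical FAP-like cells. The injured intervals lay above the uninjured one, but the log2 folds of 0.75 and 0.89 stayed under the 2-fold rule. In macrophage-like cells the uninjured library had 0 Igf2r UMIs in 30 cells, and the injured libraries had 71.4 and 76.0 CPM. Against a floor of 3 counts, that was at least 1.75-fold and 1.86-fold higher. In mural-like cells Igf2r held 114, 110.4 and 269.7 CPM, and the critical library stood above both others. Its log2 folds there were 1.24 (0.85 to 1.63) over uninjured and 1.28 (0.63 to 1.99) over subcritical muscle. The make-up of the class differed between libraries: the cluster with smooth-muscle genes held 191 of 247 uninjured, 53 of 161 subcritical and 59 of 222 critical cells, and the pericyte cluster the rest. A sub-cluster led by macrophage genes held 8, 56 and 98 cells, and FAP markers stood at 1.45%, 5.84% and 14.3% of the FAP-like level. Without that sub-cluster and one led by endothelial genes the critical fold of Igf2r over uninjured muscle was 1.30. Within the smooth-muscle sub-cluster, with 125 uninjured and 23 critical cells, Igf2r held 111.5 and 366.5 CPM, a log2 fold of 1.71 (0.74 to 2.57). Mural-like cells had 2 of 9 IGF genes called in both critical comparisons, where 17.4% and 4.14% of all genes were called, and 0 of 7 in subcritical against uninjured muscle, where 11.9% were. TMM scaling shifted mural-like folds over uninjured muscle by -0.19 and -0.13. It took the share of calls that were higher from 62.4% to 47.1% (critical) and from 56.6% to 44.2% (subcritical).

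Igfbp2 had 0, 15 and 20 UMIs in the uninjured, subcritical and critical libraries, and 16 of the 35 lay in tenocyte-like cells. Over all cells that was at least 5.89-fold (subcritical) and 5.37-fold (critical) higher than uninjured muscle, against a floor of 3 counts. The libraries differ in their cell types, with only 19 uninjured tenocyte-like cells, and the part of that difference was not tested. In no single class did Igfbp2 have enough UMIs for a comparison with uninjured muscle. Between critical and subcritical muscle it was not called in FAP-like cells (9 and 2 UMIs) or tenocyte-like cells (9 and 7 UMIs).

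Igfbp3, the main IGF carrier of blood, was chiefly endothelial in uninjured muscle, where that class held 90.9% of its UMIs. The endothelial-like level was 544 CPM (516 to 573.5) in uninjured, 291 CPM (251 to 335) in subcritical and 255 CPM (224 to 289) in critical muscle. The log2 fold was -1.09 (-1.29 to -0.89) in critical muscle, which was called, and -0.90 in subcritical muscle, which was not. Between animals the uninjured levels were 251, 591, 274 and 259 CPM, the subcritical ones 309 and 141, and the critical ones 262 and 146.5. Those animals overlapped. By edgeR's quasi-likelihood test the log2 fold was -0.88 ± 0.58 (SE, adjusted p = 0.420) in critical and -0.69 ± 0.61 (adjusted p = 0.560) in subcritical muscle. The fall was therefore not called between tagged animals. That test cannot decide the library fold, since it used tagged cells only, 557 of the 1326 uninjured endothelial-like cells. Of those tagged cells, 344 lay in 1 capillary sub-cluster, which held 618 of the 1326. In myogenic-like cells Igfbp3 had 0 UMIs in 24 uninjured cells and 216.5 and 178 CPM after injury, at least 3.54-fold and 2.90-fold higher against a floor of 3 counts. FAP-like cells held 51.5, 85.3 and 55.9 CPM, with no call.

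Igfbp4, a binding protein that mostly inhibits IGFs until the protease Pappa cuts it, was higher in FAP-like cells after injury. Its level was 1102 CPM (1023 to 1185) in uninjured, 2755 CPM (2670 to 2843) in subcritical and 2510 CPM (2447 to 2575) in critical muscle. The 3 intervals did not overlap, and the subcritical library was highest. The log2 folds over uninjured muscle were 1.32 (1.21 to 1.44) and 1.19 (1.08 to 1.30), and critical against subcritical muscle gave -0.13. FAP-like cells held 21.3% of all Igfbp4 UMIs in uninjured, 69.8% in subcritical and 67.8% in critical muscle. The mural-like share was 42.5%, 3.27% and 4.13%, with levels of 1555, 888 and 877 CPM. The mural-like class held mostly smooth-muscle cells in uninjured and mostly pericytes in injured muscle. Within its smooth-muscle sub-cluster Igfbp4 stood at 1772 CPM in uninjured and 1635 CPM in critical muscle, a log2 fold of -0.12 (-0.52 to 0.26).

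Macrophage-like Igfbp4 went the other way, from 476 CPM (35 UMIs, 332 to 662) in uninjured to 134 CPM (114 to 156) and 176 CPM (156 to 199) in injured muscle. The log2 folds were -1.82 and -1.43. As for Igf1, 19 of the 30 uninjured cells lay in a sub-cluster nearly absent from injured muscle. Between the injured groups, edgeR gave a log2 fold of 0.26 ± 0.19 (SE, adjusted p = 0.769, quasi-likelihood test with Benjamini-Hochberg adjustment) over 4 and 4 animals.

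Igfbp5, a binding protein that attaches to matrix, was lower in FAP-like cells after injury. Its level was 1860.0 CPM (1757 to 1967) in uninjured, 892 CPM (843 to 942) in subcritical and 598 CPM (567 to 630) in critical muscle. None of the 3 intervals overlapped, and the critical library was lowest. The log2 folds over uninjured muscle were -1.06 (-1.17 to -0.95) and -1.64 (-1.75 to -1.52), and critical against subcritical muscle gave -0.58 (-0.69 to -0.47), which was under the 2-fold rule. With TMM scaling the subcritical fold became -0.89 and was no longer called. Tenocyte-like Igfbp5 stood at 2198, 1082 and 504 CPM and was called between critical and subcritical muscle at -1.10 (-1.31 to -0.89). It was the only 1 of 8 IGF genes called there, where 3.2% of all genes were. Mural-like cells held 2705, 2146 and 2158 CPM with no call. Glial-like cells held 1199, 1116 and 2342 CPM, from only 108, 11 and 35 cells.

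Myogenic-like Igfbp5 was higher after injury, at 428, 796 and 934 CPM. The critical fold over uninjured muscle was 1.12 (0.48 to 1.84). TMM scaling shifted the myogenic-like folds over uninjured muscle by 0.26 (critical) and 0.25 (subcritical) and took the share of calls that were higher from 52.0% to 69.7% and from 55.7% to 72.8%.

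Igfbp6, which binds IGF2 in preference to IGF1, had the most negative folds of the IGF genes in FAP-like cells. Its level was 4537 CPM (4376 to 4703) in uninjured, 1363 CPM (1304 to 1425) in subcritical and 1177 CPM (1134 to 1221) in critical muscle. The uninjured library stood far above both injured ones, with log2 folds of -1.73 (-1.82 to -1.65) and -1.95 (-2.02 to -1.87). With cells thinned to 1000 UMIs, 81.3%, 50.1% and 48.9% of FAP-like cells had an Igfbp6 UMI, beside 0.7% to 0.9% of endothelial-like cells. Tenocyte-like cells showed the same order, at 4799, 1191 and 927 CPM. Glial-like cells (Schwann and related cells) stayed high, at 5229 CPM (4918 to 5555), 3481 CPM (2607 to 4553) and 4365 CPM (3697 to 5120).

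Mural-like Igfbp6 was called higher in critical muscle, at 3.22, 4.80 and 36.1 CPM. All 15 critical UMIs lay in at most 10 cells, and 12 of them in a sub-cluster of 98 critical cells with macrophage genes among its leading genes. The level of FAP markers in this class is given with Igf2r above, and their part in the Igfbp6 call was not tested.

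Igfbp7, which binds IGFs weakly and is a marker of vessel walls, was the 1 IGF gene whose change after injury passed a test between animals. In endothelial-like cells the 4 uninjured animals held 5132, 4940.0, 6627 and 5115 CPM (mean 5454 ± 787, SD, n = 4). In each injured group 2 animals had at least 20 tagged cells. The subcritical ones held 10030 and 9807 CPM, and the critical ones held 8188 and 9427 CPM. Subcritical replicates 1 and 3 (4 and 14 tagged cells) and critical replicates 1 and 3 (3 and 14) were left out. Every injured animal that was kept stood above every uninjured one. By edgeR's quasi-likelihood test with Benjamini-Hochberg adjustment, the log2 fold was 0.90 ± 0.12 (SE, adjusted p = 4.3e-06) in subcritical and 0.70 ± 0.12 (adjusted p = 0.000155) in critical muscle. Critical against subcritical muscle gave -0.21 ± 0.14 (adjusted p = 0.771 by edgeR). Only Igfbp7 and Igfbp3 passed edgeR's filter in this class, so 1 of 2 was called over uninjured muscle, beside 12.4% (subcritical) and 11.6% (critical) of 1591 genes. Neither was called between critical and subcritical muscle, where 0.503% were.

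Igfbp7 was higher in both injured libraries within each of the 3 vessel sub-clusters that had over 20 cells in every library. The arterial sub-cluster held 2745 CPM in uninjured, 6533 CPM in subcritical and 5543 CPM in critical muscle, log2 folds of 1.25 (1.09 to 1.41) and 1.01 (0.88 to 1.15). The capillary sub-cluster found in all 3 libraries held 5177, 9563 and 8760 CPM, with folds of 0.89 and 0.76. The venous sub-cluster held 3895, 7041 and 7656 CPM, with folds of 0.85 and 0.97. A second capillary sub-cluster was nearly confined to uninjured muscle (618, 13 and 23 cells), and a sprouting one to injured muscle (10, 166 and 181 cells). Of the tagged cells, this capillary sub-cluster gave 344 of 557 in uninjured, 2 of 105 in subcritical and 7 of 108 in critical muscle. The sprouting one gave 5, 22 and 21. The part of this shift in make-up in the Igfbp7 folds between animals was not tested. FAP-like Igfbp7 stood at 3328, 2962 and 2694 CPM, with no call, and mural-like cells held 6022, 7504 and 6526 CPM. Macrophage-like Igfbp7, at 93.9 and 121 CPM after injury, was at or below the 137 and 141 CPM that the endothelial marker RNA in those cells would carry.

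The FAP-like class held different cells before and after injury, so the IGF genes were also read within its sub-clusters. The larger of the 2 sub-clusters with resting markers (97 uninjured, 109 subcritical and 89 critical cells) held Igf1 at 326, 778 and 946 CPM, log2 folds of 1.25 (0.88 to 1.62) and 1.53 (1.19 to 1.88). Its Igfbp4 stood at 506, 2087 and 1486 CPM, with folds of 2.04 and 1.55. Igf1 and Igfbp4 were thus called within this sub-cluster too, where 6.42% (subcritical) and 6.41% (critical) of genes were. Its Igfbp5 and Igfbp6 were lower but under the 2-fold rule, with critical folds of -0.73 (-1.02 to -0.46) and -0.83 (-0.99 to -0.67). Igf2 there held 10.0, 39.9 and 112 CPM, with a critical fold of 3.35 (1.84 to 5.07).

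The smaller one, led by C7 and Inmt (28, 20 and 26 cells), gave other results. Its Igf1 stood at 548, 1177 and 799.5 CPM, called in subcritical muscle at 1.10 (0.48 to 1.71) and not in critical muscle at 0.54 (-0.07 to 1.15). Its Igfbp4 stood at 2314, 5139 and 2138 CPM, called in subcritical muscle at 1.15 (0.86 to 1.44) and not in critical muscle at -0.11. The share of genes called in this sub-cluster was 7.48% in subcritical and 8.34% in critical muscle. Igfbp5 was not lower here, at 1299, 1608 and 1543 CPM, and Igfbp6 stood at 3217, 2842 and 4035 CPM, with no call for either. Igf2 there had too few UMIs to compare.

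The sub-cluster with universal-progenitor markers such as Pi16 and Dpp4 (29, 100 and 101 cells) repeated the Igf1 and Igfbp4 calls. Igf1 stood at 374, 803 and 816 CPM, folds of 1.10 and 1.12, where 10.2% and 9.97% of genes were called. Igfbp4 stood at 1617, 3608 and 3792 CPM, and Igfbp6 at 7831, 3034 and 3277 CPM with folds of -1.37 and -1.26. Igfbp5 was highest here among sub-clusters of at least 20 cells, at 3998, 2190.0 and 2506 CPM, and its folds of -0.87 and -0.67 were not called.

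Most injured FAP-like cells lay in sub-clusters nearly absent from uninjured muscle. One unnamed sub-cluster (2, 213 and 228 cells) had Igf2 among its leading genes, at 97.8 CPM in subcritical and 215 CPM in critical muscle. That difference was called, at 1.13 (0.64 to 1.64), where 2.8% of genes were. Its Igf1 stood at 1329 and 1155 CPM. The sub-cluster with wound-fibroblast markers (1, 108 and 169 cells) went the other way for Igf2, at 67.8 and 27.8 CPM. Its fold was -1.26 (-2.17 to -0.35), where 3.3% of genes were called. The tenocyte markers Scx and Tnmd were among the leading genes of this sub-cluster, beside the wound markers Tnc and Col12a1. Igfbp5 was lowest there, at 363 and 135 CPM, a fold of -1.42 (-1.82 to -1.03). A dividing sub-cluster (0, 47 and 102 cells) held the least Igf1, at 235 and 281 CPM.

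**Figure D5:**
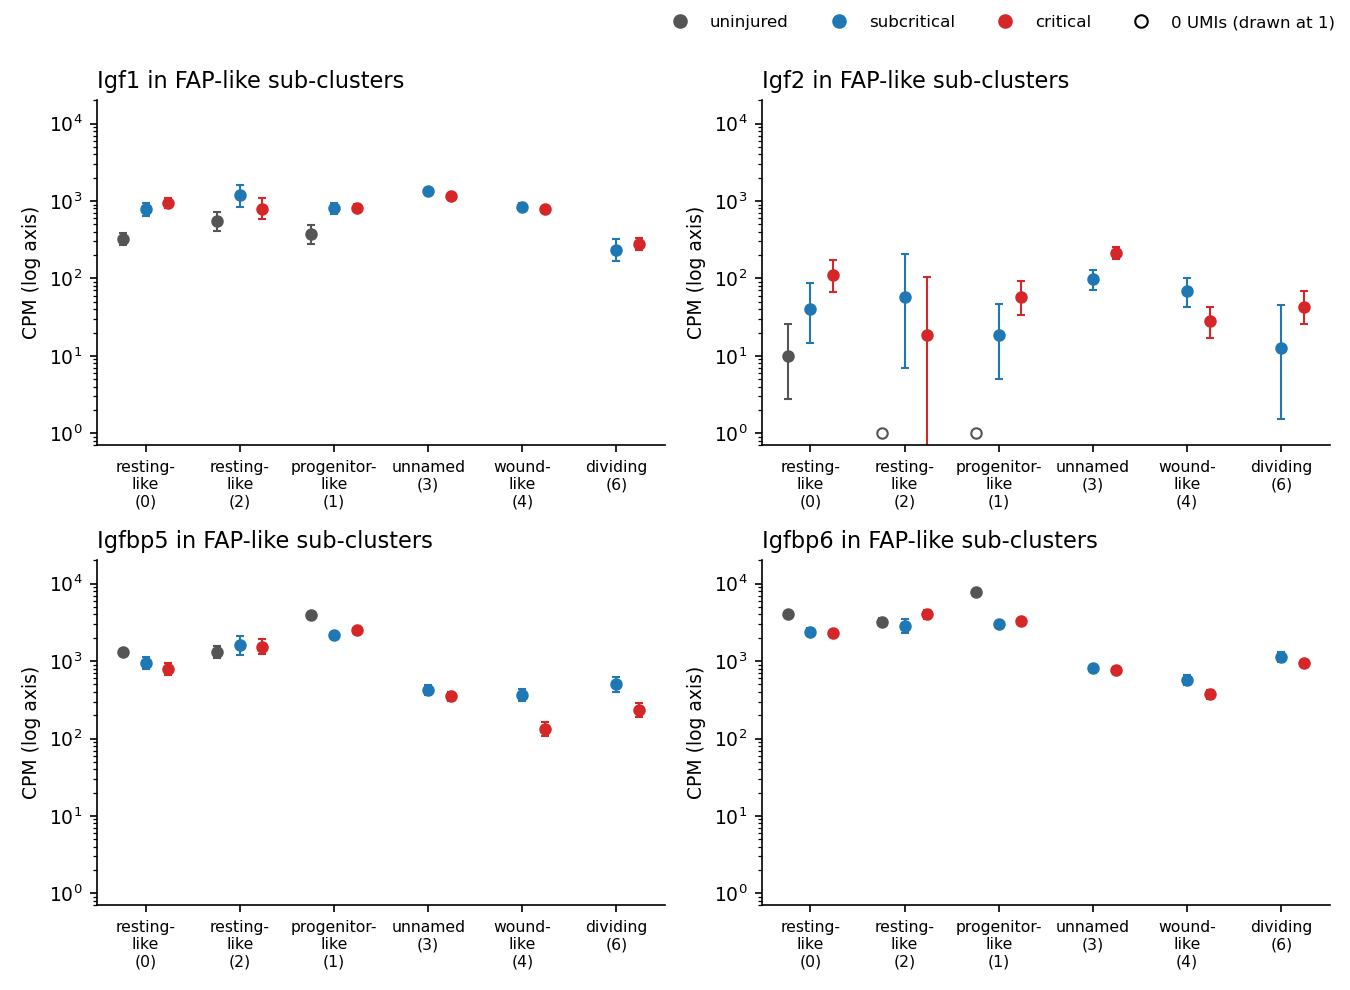
Igf1, Igf2, Igfbp5 and Igfbp6 levels in FAP-like sub-clusters with at least 20 cells in a library (log10 axis, CPM, exact 95% Poisson intervals), coloured by library. Igf1 is higher after injury within the larger resting (0) and the progenitor sub-clusters, Igfbp6 is lower in the progenitor one, and Igfbp5 is lowest in the wound sub-cluster.

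Other cell types' RNA in FAP-like cells also differed between libraries. The summed level of 10 macrophage markers was 9.08 CPM in uninjured, 619 CPM in subcritical and 423.5 CPM in critical FAP-like cells, with 6 of 10 at 0 in uninjured muscle. The sum of 10 mural markers was 141, 878 and 986 CPM. Left out of the class, the 2 sub-clusters led by endothelial or macrophage genes changed no IGF call over uninjured muscle. The critical folds were then 1.14 for Igf1, 3.68 for Igf2, 1.19 for Igfbp4, -1.65 for Igfbp5 and -1.95 for Igfbp6.

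The genes around the IGF system were read from fixed lists. In FAP-like cells, 11 genes of the imprinted growth list, which includes H19, the noncoding neighbour of Igf2, were tested. Of these, 9 were called higher and 1 lower in critical muscle, and 9 higher and 0 lower in subcritical muscle. Over all genes tested, 6.11% were called higher and 8.04% lower in critical muscle, and 5.37% and 8.16% in subcritical muscle. The list's median log2 fold was 2.45 and 2.21, beside -0.04 and -0.10 over all genes. H19 held 37.8, 630.3 and 725 CPM, a critical fold of 4.22 (3.67 to 4.84). Mest, an imprinted gene active in growth, held 40.9, 1338 and 1396 CPM, and Dlk1, a membrane inhibitor of adipocyte formation, held 15.1, 458 and 376 CPM. Plagl1, a zinc-finger regulator of imprinted genes, held 15.1, 110.4 and 142 CPM, and the noncoding Rian held 24.2, 136 and 142 CPM. H19 and Mest were among the leading genes of a FAP-like cluster with 1 uninjured, 257 subcritical and 366 critical cells. The list was read over the whole class only, and the part of this change in make-up was not tested. It was also chosen with earlier results of these data known.

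The other lists were read in FAP-like cells against the 14.2% (critical) and 13.5% (subcritical) of all genes called over uninjured muscle. Of 13 receptor and adaptor genes, 1 was called higher and 1 lower in critical muscle (median log2 fold 0.01), and 1 higher and 2 lower in subcritical muscle (median -0.16). Of 19 PI3K-AKT-mTOR genes tested, 0 were higher in either, while 2 were lower in critical (median -0.14) and 3 in subcritical muscle (median -0.29). Of FoxO targets, 0 were higher and 2 lower in each, among 9 in critical (median 0.06) and 8 in subcritical muscle (median -0.18). Of binding-protein proteases and partners, 2 were higher and 3 lower among 14 in critical muscle (median -0.07), and 2 higher and 2 lower among 15 in subcritical muscle (median 0.02). Adam12, a metalloprotease that cuts IGF-binding proteins, was the largest of these, at 3.03, 104 and 156 CPM. Between critical and subcritical muscle, Pappa, which cuts Igfbp4, was called at 1.03 (0.04 to 2.06), with 6.29 and 13.9 CPM, and the FoxO target Fbxo32 at 1.51 (0.32 to 2.70), where 1.94% of all genes were. With a pseudocount of 10 CPM these folds were 0.55 and 0.69, under the 2-fold rule.

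In endothelial-like cells, edgeR's quasi-likelihood test between animals called Mest higher, with log2 folds of 3.40 ± 0.49 in subcritical (adjusted p = 2.1e-05) and 2.91 ± 0.50 in critical muscle (adjusted p = 0.000197). Cdkn1c, an imprinted inhibitor of the cell cycle, fell by 1.15 ± 0.28 (adjusted p = 0.00819, edgeR) and 1.16 ± 0.27 (adjusted p = 0.00478, edgeR). These were the 2 imprinted genes that passed the filter in that class. Of the other lists, Txnip, a FoxO target that restrains glucose uptake and the 1 gene of its list tested, fell by 0.89 ± 0.20 in critical (adjusted p = 0.00339, edgeR) and by 0.63 ± 0.20 in subcritical muscle (adjusted p = 0.0436, edgeR). Of 4 receptor and adaptor genes, Rack1, a scaffold protein, rose by 0.71 ± 0.17 in subcritical muscle (adjusted p = 0.00669, edgeR) and 0 were called in critical muscle. Of 5 PI3K-AKT-mTOR genes and 2 proteases and partners tested, edgeR called 0. Over all genes edgeR called 11.6% in critical and 12.4% in subcritical muscle. Mest was among the leading genes of the sprouting sub-cluster. That sub-cluster gave 5 of 557 tagged uninjured, 22 of 105 subcritical and 21 of 108 critical endothelial-like cells. The part of this shift in make-up in the folds of these genes was not tested.

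Over 20 class-by-library profiles of at least 50 cells, the gene most like each IGF gene was found by Pearson correlation of log2(CPM + 10). The profiles share libraries and cells' depth, so r is given as a description. Igf1 was most like Pdpn (r = 0.905), Igf2 like Enah (0.837), Igf1r like Lin7c (0.893) and Igf2r like Golga3 (0.891). Among binding proteins, Igfbp3 was most like Ptpn14 (0.914), Igfbp4 like Csrp2 (0.940), Igfbp5 like Bmpr1a (0.962), Igfbp6 like Smoc2 (0.978) and Igfbp7 like Tnks1bp1 (0.960). Igfbp2 was too low to rank.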

How the data were processed

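Single-cell RNA was measured with the 10x Genomics 5' kit, version 2, together with antibody tags, in 3 libraries. Per the labels' protocols, cells of 4 animals per group were hashtagged and pooled. The values are raw UMI counts per gene and cell as deposited by the authors, made with cellranger 6.0.2 on GRCm39 (mm39) per the submitters' processing notes. Antibody counts were used only for the 4 hashtags. Columns of no known sample numbered 0.

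Cells needed at least 200 genes, 500 UMIs and at most 20% mitochondrial UMIs. Doublets were taken to be cells that carried more than 1 hashtag, and 25, 58 and 56 were dropped. Scrublet called only 0, 22 and 3 cells, so it has not worked and was used only in an alternative. Clustering used scanpy 1.11.5 (1995 variable genes, 30 components, 15 neighbours, Leiden resolution 0.8, 0.5 for sub-clusters, seed 1) with the 10 IGF genes left out. Names come from marker lists. Rules that left clusters unnamed (a narrow lead, dividing genes, mixed leading genes, under 20 cells) were added after seeing the clusters. The class nearest to monocyte markers passed them but is left unnamed for its leading genes. A difference from the authors' own cell names may come from these rebuilt ones.

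UMIs were summed per class and library, scaled to CPM and compared at a pseudocount of 1 CPM. UMIs per animal with at least 20 cells were tested with edgeR 4.0.16 (TMM, filterByExpr, robust quasi-likelihood, Benjamini-Hochberg threshold 0.05), checked on simulated data. All animals of the class shared 1 fit. Animals are separate mice that share a library, so p-values measure the spread between animals within pools. Macrophage-like cells of uninjured muscle had too few tagged cells for a fit.

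The IGF genes and all lists were chosen with earlier results of these data known. Named list genes are the 6 largest calls per comparison, and likeness was ranked over genes of at least 50 CPM in any profile. Promoter windows matched all 10 IGF genes (14 windows). Alternatives were DESeq2 1.42.0, other size factors, no filter, other cell and hashtag thresholds, other clustering, and leaving out each animal, the 10 highest cells or mixed sub-clusters. Leaving out mixed sub-clusters was chosen after seeing the data.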

Additional observations from a re-analysis of the deposited data

Results flagged for a closer look

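In 25 checks of 4 animals for the highest or lowest standing apart, 3 did, and chance gives about 1 in 20. In endothelial-like cells, uninjured replicate 2 held 591 CPM of Igfbp3 while the others held 251 to 274 CPM. Uninjured replicate 3 held 6627 CPM of Igfbp7 there, while the others held 4940.0 to 5132 CPM. In macrophage-like cells, critical replicate 2 held 610.5 CPM of Igf1, and the others 382 to 405 CPM.

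Several IGF genes went in opposite directions in different classes of the same libraries. None of these differences between classes was tested, and each fold compares single libraries. Igf2 over uninjured muscle stood at log2 folds of 3.65 (critical) and 3.10 (subcritical) in FAP-like cells and at 2.96 and 2.42 in myogenic-like cells. In endothelial-like cells Igf2 stood at -1.67 and -1.86. Igfbp4 stood at 1.19 and 1.32 in FAP-like cells, at -1.43 and -1.82 in macrophage-like cells and at -2.90 and -2.62 in the unnamed myeloid class, where Elane, Mpo and Prtn3 lead the genes beside the monocyte markers Ly6c2 and Plac8. In neutrophil-like cells Igfbp4 stood at 2.09 in subcritical muscle, from 5 UMIs. Igfbp4 in the unnamed myeloid class was 350.2 CPM in uninjured and 46.2 CPM in critical muscle. Of its 152 uninjured UMIs there, 141 came from uninjured replicate 2, which gave 43 of the 68 uninjured cells. Igfbp5 in critical muscle stood at -1.64 in FAP-like and 1.12 in myogenic-like cells. Igfbp6 stood at -1.95 in FAP-like and 3.14 in mural-like cells, the latter from 15 UMIs. Igfbp3 stood at -1.09 in endothelial-like cells. In myogenic-like cells its fitted fold of 7.48 is set against 0 UMIs and depends on the pseudocount.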

How the results depend on the processing

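The 5 IGF calls over uninjured muscle in FAP-like cells kept their direction under every alternative, and 4 to 6 IGF genes passed 2-fold. TMM scaling moved the critical count to 6 and the subcritical one to 4. With a pseudocount of 10 CPM, FAP-like genes past 2-fold numbered 855, 748 and 16 (critical and subcritical over uninjured, critical over subcritical) in place of 1557, 1382 and 219. Endothelial-like genes called between animals numbered 104 and 108 with DESeq2 in place of 185 and 198, and 316 in subcritical muscle with at least 1000 UMIs per cell. With each animal left out they numbered 73 to 222 (critical), 70 to 225 (subcritical) and 3 to 8 (critical over subcritical, 8 in all). The lowest counts came without critical replicate 4 (73; 107 without replicate 2), without subcritical replicate 4 (70), and without either critical replicate (3; 5 without uninjured replicate 1). Where a cell, animal or filter changed these counts, the cause was not tested. Leaving 1 critical or subcritical animal assumes that it varies like the others. The Igfbp7 adjusted p (edgeR or DESeq2) ranged from 1.37e-05 to 0.0230 in critical and 7.88e-08 to 0.000179 in subcritical muscle.

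Direction reversed for some folds that have no test, or that the test between animals did not call. Igfbp6 in mural-like cells gave -1.09 for critical over subcritical muscle when classes came from marker scores. Macrophage-like Igfbp4 without the 10 highest cells gave 0.39 (critical) and 0.00346 (subcritical) over uninjured muscle. That setting takes the 10 cells with most Igfbp4 from 30 uninjured but from 816 and 836 injured cells, which by construction raises the fold. The other alternatives gave -1.57 to -0.73 and -1.97 to -1.16. Between animals, critical over subcritical muscle, Igfbp3 in endothelial-like cells gave -0.67 to 0.46 with an animal left out and 0.00655 at a hashtag share of 70%. Macrophage-like Igf2r gave -0.30 to 0.29 with an animal left out, 0.00374 without the highest doublet scores and 0.010 without mixed sub-clusters. Igfbp7 there gave -0.019 to 0.65 with an animal left out, -0.10 without the highest doublet scores and -0.25 without mixed sub-clusters, but with at least 1000 UMIs per cell it became called at 1.03 (adjusted p = 0.0369, edgeR). Endothelial-like Igfbp3 in critical over uninjured muscle became called at -1.01 (adjusted p = 0.0418, edgeR) with no filter on low counts. Igfbp4 in the unnamed myeloid class gave -1.27 to 0.18 with an animal left out and 0.022 at a hashtag share of 70%. Of the IGF folds, 1048 library values stayed within the counting interval of the main fold, 142 moved outside it and 3 called ones reversed. These intervals are wide at low counts, so staying within one can still be a large move. The 1048 include some DESeq2 values between animals that had no adjusted p. Of the other animal values, 146 kept their call, 2 became called and 15 reversed. No paired analysis was possible because each group is a separate pool and its hashtag numbers mark different animals. Depth limits Igfbp2 and every uninjured macrophage-like and myogenic-like value, which rest on 30 and 24 cells.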
